A study of Mus musculus with 12 samples.

Results

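The imprinted genes of growth control led by the non-coding RNA gene H19 are described here across 4 groups of mouse skin libraries. They are H19, Igf2, Dlk1, Meg3, Peg3, Mest, Plagl1, Cdkn1c, Grb10 and Ndn, 10 of the 53379 genes counted. The members were listed by symbol and were selected on their RNA levels in these libraries, that is on values of the comparisons given here. Their levels, fold changes and calls past a threshold are therefore given as a description, and no test result is read as support.

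Bulk RNA was sequenced from whole skin of 3-month-old mice on a mixed C57BL/6 and B6D2 background, in 12 libraries that form 4 groups of 3. Prss56Cre and the reporter R26tdTom were carried by control mice, and the Nf1-KO mice had both of these together with Nf1flox/-, that is 1 floxed and 1 null Nf1 allele. Skin of each genotype was taken either uninjured or 14 days after injury. All groups thus share the Cre and the reporter. Cre under the Prss56 promoter marks a lineage of boundary cap cells, which give rise to Schwann cells of nerve roots and skin, so most skin cells lie outside it. The null Nf1 allele, as the genotype is written, does not depend on Cre and would be present in all cells of the Nf1-KO mice. The labels do not say whether the 3 numbered samples of a group came from separate animals, so p-values measure the spread between these samples only.

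Imprinted genes are expressed mainly from the chromosome inherited from 1 parent, under the control of a differentially methylated region shared by neighbouring genes. Many of them act on fetal growth, are abundant in embryonic mesenchyme and become scarce in most tissues after birth. H19 and Meg3 are long non-coding RNAs of the maternal chromosome that neighbour the paternal genes Igf2 and Dlk1. Counts per gene do not tell the parental alleles apart, so nothing here measures imprinting itself.

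H19 is also the host transcript of a microRNA, and the sequences below are shown because they lie inside the gene with the largest injury difference of the 10. H19 (ENSMUSG00000000031, a lincRNA) spans chr7:142575529-142578143 on the minus strand of GRCm38, the assembly of mm10. Both mature arms of miR-675 come from 1 hairpin inside it, and the RefSeq miRNA table (GRCm38.p6) places the 5p arm at chr7:142577112-142577133 and the 3p arm at chr7:142577078-142577099. Capitals mark the seed, bases 2 to 8, and each of these seeds occurs in 1 mature miRNA of the mouse table, so neither is shared with another family there.
mmu-miR-675-5p: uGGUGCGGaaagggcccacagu
mmu-miR-675-3p: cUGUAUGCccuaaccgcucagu
The counted Mir675 gene, the hairpin's own entry in the annotation, held 5 reads over the 3 control uninjured libraries and 223 over the 3 control injured ones. In Nf1-KO skin it held 7 and 179. These reads overlap H19 and come from long-RNA libraries, so they are not a measure of the mature miRNA.

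Promoter windows, from 250 bases before to 50 bases after a start site, were found in the RefSeq table for 8 of the 10 members, in 15 windows. The letters GGGGCCCC, bound by the zinc-finger factor PLAGL1, which is itself a member, were searched because PLAGL1 is known to act on other imprinted genes. They read the same on both strands. One of the 15 member windows held them, against 1.08% of 32851 windows, and it belongs to Peg3. The 250 bases before the Peg3 start site (chr7:6730420-6730669, minus strand) are shown with that match in capitals, beginning 201 bases before the start.
Peg3 upstream: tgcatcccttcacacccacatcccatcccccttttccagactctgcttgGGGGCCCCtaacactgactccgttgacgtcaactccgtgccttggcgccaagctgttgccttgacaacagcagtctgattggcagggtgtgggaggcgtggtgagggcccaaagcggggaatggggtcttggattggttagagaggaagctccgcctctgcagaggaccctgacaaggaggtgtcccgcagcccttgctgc
The letters TGCCGC, searched on both strands as the core bound by the imprint guardian ZFP57, stood in 6 of the 15 windows and in at least 1 window of 5 of the 8 members, against 11.6% of all windows. The median GC content was 59.3% in member windows and 52.7% over all windows. Windows of 1 gene overlap in places, and a match is a run of letters rather than a bound site.

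Libraries held 8817013 to 16809687 counts. Skin state moved together with other properties of the libraries. Xist stood at 0.709 to 2.95 raw CPM (counts rescaled so that libraries of different size can be compared) in the 6 uninjured libraries whereas the 6 injured ones had 436 to 627, and the Y-linked Ddx3y had 68.2 to 93.3 and 0 to 0.0595. The uninjured libraries thus carried male markers and the injured ones female markers in both genotypes, so injury and sex cannot be told apart. A background was read from 1728 odorant and vomeronasal receptor genes, which were taken to be largely silent in skin as a family. It stood at 0.0953 to 0.337 raw CPM per kb without injury and 0.00229 to 0.0533 with it, highest among the latter in Nf1-KO 3 and then Nf1-KO 2 (0.0179). Nf1 itself lay between 8.14 and 17.2 raw CPM in every library, and these counts do not show which reads came from a recombined allele.

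In injured control skin all 10 genes stood higher than in uninjured control skin, from 1.65-fold for Plagl1 to 88.0-fold for H19. In Nf1-KO skin all 10 stood higher as well, from 3.00-fold for Ndn to 97.7-fold for H19. A gene was called where the adjusted p of edgeR's quasi-likelihood test, over 23635 genes, was under 0.05, and all 10 members had passed the filter on low counts. The 10 members were all called higher in control skin, where 22.8% of all genes were called higher and 55.3% were called in either direction. All 10 were called higher in Nf1-KO skin too, where the background was 19.1% higher and 37.4% in either direction. The median log2 fold change of the 10 was 2.67 in control and 3.28 in Nf1-KO skin, beside -0.21 and -0.09 for all genes tested. These are the contrasts that the choice of members had in view, so nothing is read from the counts. Injured and uninjured libraries did not overlap for 9 members in control skin and 10 in Nf1-KO skin, and groups apart in that direction made up 25.8% and 23.6% of all genes.

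The count in control skin depended on single libraries. Without control uninjured 2 it was 6, without control injured 3 it was 7, and leaving out the others gave 8 to 10. Without control uninjured 1 and 2, which have the highest receptor background, it was 5, an alternative chosen after seeing the data. Dlk1, Meg3, Mest, Plagl1 and Ndn were then not called, and H19, Igf2, Peg3, Cdkn1c and Grb10 were. In Nf1-KO skin the count was 9 or 10 with any library left out, and 9 without the Nf1-KO injured libraries 2 and 3.

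**Figure D1:**
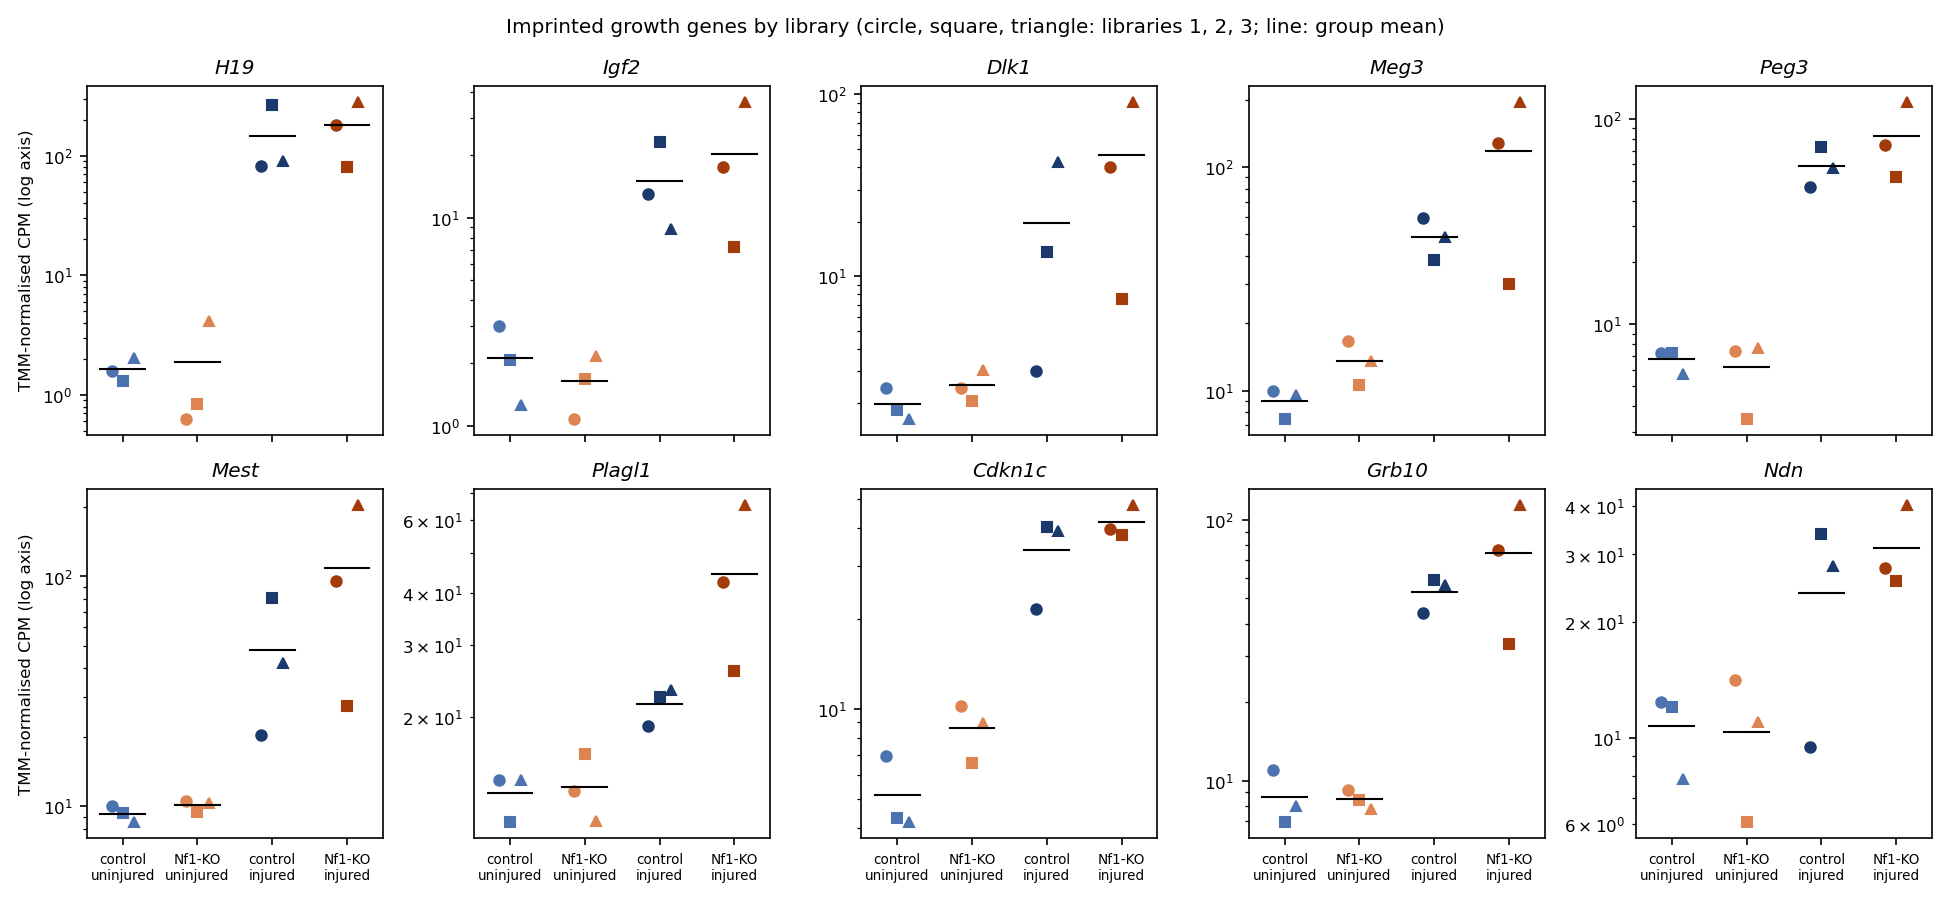
Level of each of the 10 genes in every library, as TMM-normalised CPM on a log axis, with libraries 1, 2 and 3 of a group as circle, square and triangle and the group mean as a line. Injured libraries lie above uninjured ones of the same genotype for every gene except Ndn in control skin, where control injured 1 (9.51) falls among the uninjured values, and the 3 Nf1-KO injured libraries are spread widely for most genes.

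H19 showed the largest difference. TMM-normalised CPM (CPM after the scaling that edgeR applies between libraries) of libraries 1, 2 and 3 stood at 1.60, 1.30 and 2.02 in uninjured control skin, and at 0.627, 0.843 and 4.16 in uninjured Nf1-KO skin. After injury control libraries had 82.9, 266 and 90.3, and Nf1-KO libraries had 180.1, 81.3 and 283. Every injured library stood far above every uninjured one. Among the injured ones, control 2, Nf1-KO 1 and Nf1-KO 3 were high and the other 3 lower, so that the high and low libraries came from both genotypes. Behind these levels lay 7 to 46 H19 reads in each library without injury, and 933 to 4195 in each library with it. The log2 fold change of injury was 6.46 ± 0.87 (SE) in control and 6.61 ± 0.87 in Nf1-KO skin.

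Igf2, the paternally expressed growth factor that signals through the IGF1 receptor and neighbours H19 (ENSMUSG00000048583, chr7:142650766-142666816), had as counted a lower level than H19 per kb of exon in every library. Its CPM were 3.01, 2.07 and 1.26 in control uninjured and 1.08, 1.69 and 2.17 in Nf1-KO uninjured libraries. In injured skin they were 12.98, 23.2 and 8.82 in control and 17.4, 7.20 and 36.0 in Nf1-KO libraries. The injured and uninjured groups did not overlap in either genotype, and Nf1-KO 3 was the highest and Nf1-KO 2 the lowest injured library for Igf2 and H19 alike. Injured exceeded uninjured skin by 2.85 ± 0.56 log2 units in control and 3.61 ± 0.58 in Nf1-KO mice. In these unstranded libraries a predicted gene on the same strand, Gm49394, shares most of the Igf2 locus. Its level was nearly the same (14.7 ± 7.24 CPM in control injured skin, SD, n = 3, beside 15.0 ± 7.39 for Igf2). Over the 12 libraries Gm49394 held 1540 reads and Igf2 1573. The same reads may thus have been counted for both genes, or divided between them, and which was not tested. Per kb of exon the ratio of H19 to Igf2 as counted was 1.16 to 4.46 without injury and 14.9 to 26.7 with it. Igf2 and Gm49394 together had 3.99 CPM in uninjured control skin, beside 2.11 for Igf2 alone. If the same reads were counted for both, this sum counts them more than once. If reads were instead divided between the genes, the ratio, and in uninjured skin which of H19 and Igf2 is higher, depends on that division.

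Dlk1 encodes a membrane protein of the Notch ligand family, also known as preadipocyte factor, and lies at chr12:109452823-109463336 (ENSMUSG00000040856). Its CPM were 2.45, 1.84 and 1.64 in control uninjured and 2.42, 2.07 and 3.07 in Nf1-KO uninjured libraries. Injured libraries held 3.02, 13.6 and 42.5 in control and 40.1, 7.48 and 91.0 in Nf1-KO skin. Dlk1 had the widest spread among injured libraries, and control injured 1 was below the highest Nf1-KO uninjured library. The log2 fold change was 3.33 ± 1.09 in control and 4.19 ± 1.10 in Nf1-KO skin. The call in control skin was lost without control injured 3 (2.15) and without any 1 of control uninjured 1 (3.57), 2 (3.30) or 3 (3.29). The call in Nf1-KO skin was lost without Nf1-KO uninjured 1 (4.12) or 2 (4.02).

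Meg3, the maternal long non-coding RNA of the same domain (ENSMUSG00000021268, a lincRNA, chr12:109541001-109571726), was at 9.97, 7.44 and 9.53 CPM in control uninjured and 16.7, 10.6 and 13.6 in Nf1-KO uninjured libraries. In injured skin it was at 59.2, 38.5 and 48.9 in control and 128.9, 30.05 and 196 in Nf1-KO libraries. Its injured control libraries were close to each other where those of Dlk1 were not. The ratio of Meg3 to Dlk1 per kb was 1.26 to 2.15 in uninjured libraries and ranged from 0.36 to 6.13 in injured ones. The log2 fold change of Meg3 was 2.44 ± 0.54 in control and 3.12 ± 0.54 in Nf1-KO skin. A predicted gene on the opposite strand, Gm26906, overlaps Meg3 and had 20.2 ± 9.02 CPM in control injured skin (SD, n = 3), and its reads cannot be told from those of Meg3 where the exons overlap.

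Cdkn1c encodes the cyclin-dependent kinase inhibitor p57 and is maternally expressed (ENSMUSG00000037664, chr7:143458339-143461050). It had 6.96, 4.30 and 4.16 CPM in control uninjured and 10.2, 6.59 and 8.94 in Nf1-KO uninjured libraries. Injured libraries had 21.6, 40.6 and 39.2 in control and 39.7, 38.1 and 47.8 in Nf1-KO skin. It was the steadiest member in Nf1-KO injured skin, where the others varied more between libraries relative to their mean. On the log2 scale the injured groups were higher by 2.73 ± 0.29 in control and 2.29 ± 0.28 in Nf1-KO skin. A predicted antisense gene, Gm44732, overlaps Cdkn1c and had 7.77 ± 4.28 CPM in control injured skin (SD, n = 3). Its reads cannot be told from those of Cdkn1c where the exons overlap.

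Grb10, maternally expressed in most tissues, encodes an adaptor that dampens signalling by insulin and IGF1 receptors (ENSMUSG00000020176, chr11:11930508-12038683). Its CPM were 11.004, 6.91 and 8.01 in control uninjured and 9.23, 8.43 and 7.77 in Nf1-KO uninjured libraries. They were 43.7, 58.7 and 56.3 in control injured and 76.3, 33.4 and 113.8 in Nf1-KO injured libraries. The injured and uninjured groups were well apart in both genotypes. The log2 fold change was 2.62 ± 0.34 in control and 3.13 ± 0.35 in Nf1-KO skin.

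Peg3 encodes a paternally expressed zinc-finger protein (ENSMUSG00000002265, chr7:6703892-6730431), and its upstream sequence is the one printed above. It was at 7.24, 7.21 and 5.74 CPM in control uninjured and 7.44, 3.45 and 7.68 in Nf1-KO uninjured libraries. Injured levels were 46.6, 73.2 and 57.8 in control and 74.7, 51.8 and 120.9 in Nf1-KO libraries. All 6 injured libraries stood well above the 6 uninjured ones. On the log2 scale the injured groups were higher by 3.14 ± 0.34 in control and 3.74 ± 0.35 in Nf1-KO skin.

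Plagl1, which encodes the zinc-finger factor named above (ENSMUSG00000019817, chr10:13060504-13131694), had the smallest difference in control skin. Its CPM were 14.1, 11.1 and 14.1 in control uninjured and 13.3, 16.3 and 11.2 in Nf1-KO uninjured libraries. They were 19.02, 22.4 and 23.3 in control injured and 42.6, 26.0 and 65.3 in Nf1-KO injured libraries. The uninjured libraries were close together, and the lowest Nf1-KO injured library was above the highest control injured one. Injured exceeded uninjured skin by 0.72 ± 0.27 log2 units in control and 1.71 ± 0.28 in Nf1-KO mice. The call in control skin was lost without any 1 of control uninjured 2 (0.62), control injured 2 (0.74) or control injured 3 (0.71).

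Mest, a paternally expressed member of the hydrolase fold family (ENSMUSG00000051855, chr6:30723547-30748465), had 10.1, 9.36 and 8.52 CPM in control uninjured and 10.6, 9.501 and 10.3 in Nf1-KO uninjured libraries. Injured libraries had 20.4, 80.5 and 42.1 in control and 95.2, 27.4 and 204 in Nf1-KO skin. Uninjured values were nearly constant, while the injured ones spread over a wide range in both genotypes. The log2 fold change was 2.36 ± 0.68 in control and 3.43 ± 0.71 in Nf1-KO skin, and the call in control skin was lost without control uninjured 2 (2.37). Copg2, on the opposite strand with overlapping exons, was the more abundant of the pair in uninjured control skin (96.7 ± 31.3 CPM, SD, n = 3) and was not called in either injury comparison (edgeR adjusted p = 0.0781 and 0.23). Reads of Copg2 and Mest cannot be told apart where the exons overlap, and their part in the Mest levels was not tested.

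Ndn encodes necdin, a paternally expressed protein of the MAGE family (ENSMUSG00000033585, chr7:62346569-62350262). Its CPM were 12.4, 12.1 and 7.82 in control uninjured and 14.2, 6.05 and 11.02 in Nf1-KO uninjured libraries. Injured libraries held 9.51, 33.9 and 28.0 in control and 27.6, 25.5 and 40.3 in Nf1-KO skin. It was the only 1 of the 10 whose injured and uninjured control groups overlapped, through control injured 1. The log2 fold change was 1.15 ± 0.41 in control and 1.58 ± 0.41 in Nf1-KO skin. The call in control skin was lost without any 1 of control uninjured 2 (1.25), control uninjured 3 (1.07), control injured 2 (0.87) or control injured 3 (1.09).

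**Figure D2:**
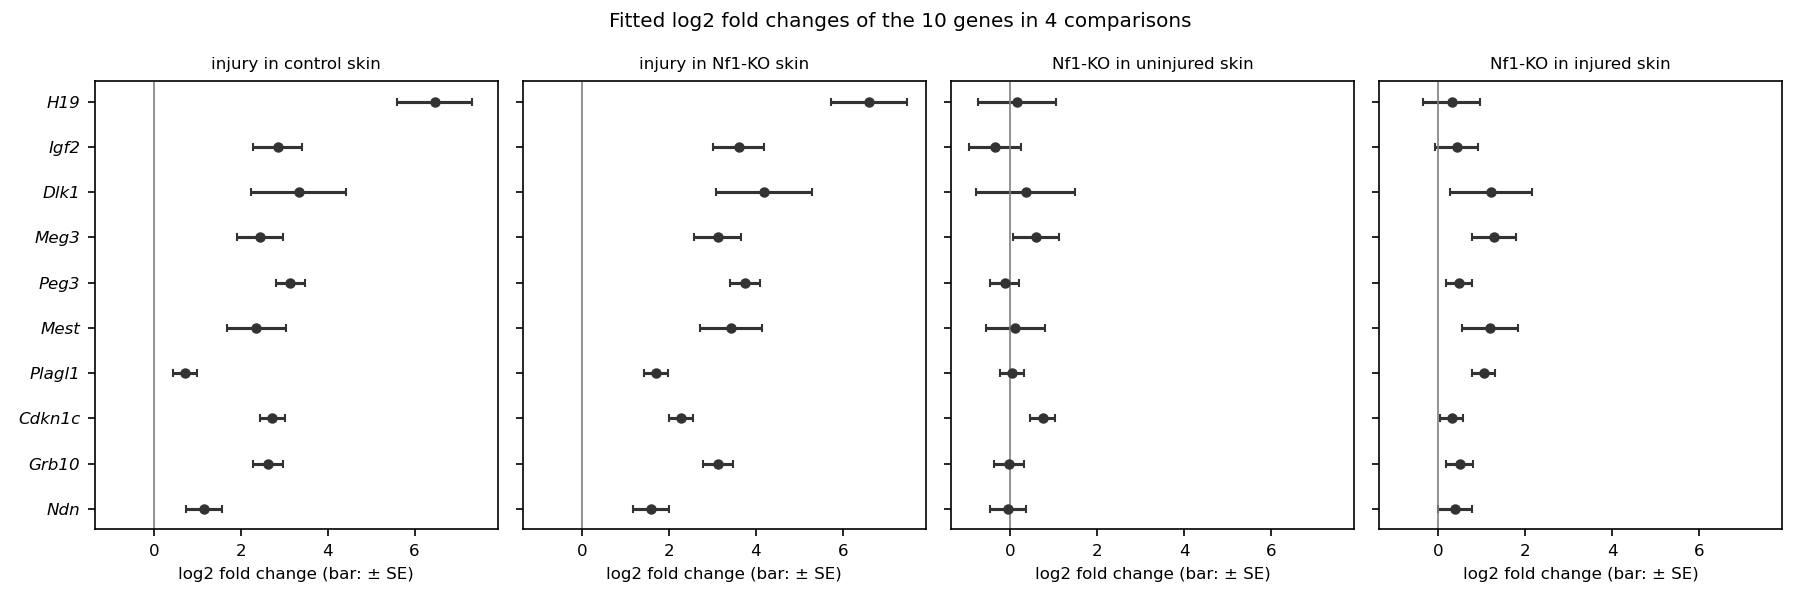
Fitted log2 fold changes of the 10 genes (points) with their standard errors (bars) in the comparisons of injured with uninjured skin in each genotype and of Nf1-KO with control skin in each state. H19 lies farthest right in both injury panels (6.46 and 6.61), Plagl1 (0.72 in control) and Ndn (1.58 in Nf1-KO) lie nearest to 0, and the uninjured genotype values lie between -0.34 and 0.75.

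The order of the levels was read per kb of exonic length, so that genes can be set side by side. In uninjured control skin Ndn (2.91 CPM per kb), Cdkn1c (2.52) and Mest (2.36) stood highest, and Igf2 (0.37) and Dlk1 (0.349) lowest, with H19 the sixth at 0.667. In injured control skin H19 stood first at 59.5 ± 42.0 (SD, n = 3), ahead of Cdkn1c at 16.6 ± 5.19 and Mest at 12.1 ± 7.72. In injured Nf1-KO skin H19 was at 73.8 ± 41.0, followed by Mest at 27.6 ± 22.6 and Cdkn1c at 20.5 ± 2.56, and Igf2 was lowest at 3.53. Most neighbours in these orders were not apart. Of 9 neighbouring pairs, library ranges overlapped for 7 in control uninjured, 6 in Nf1-KO uninjured, 8 in control injured and 8 in Nf1-KO injured skin. In injured control skin H19 and Cdkn1c were the single pair apart. In injured Nf1-KO skin H19 overlapped Mest, and Cdkn1c and Ndn were the pair apart. In uninjured skin of both genotypes Mest was apart from Plagl1 and Plagl1 from Grb10.

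The receptor background sets a floor for the low uninjured levels. In uninjured libraries Igf2 stood at 1.57 to 3.19 times that background per kb, Dlk1 at 1.43 to 4.57 times, Peg3 at 1.38 to 4.85 times, Meg3 at 1.80 to 7.75 times and H19 at 1.83 to 14.2 times. How far background reads enter these uninjured levels, and so the fold changes, was not tested. Grb10 stood at 3.33 to 9.44 times and Plagl1 at 6.23 to 19.3 times. Ndn (8.75 to 32.2 times), Mest (9.14 to 23.1 times) and Cdkn1c (9.23 to 42.1 times) stood highest above it.

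The injured libraries differed from each other in a way that many of the 10 genes shared. Nf1-KO injured 3 was the highest injured library for all 10 genes. The lowest was control injured 1 for Cdkn1c, Dlk1, Mest, Ndn, Peg3 and Plagl1, and Nf1-KO injured 2 for Grb10, H19, Igf2 and Meg3. Across the 12 libraries the Pearson correlation of log2(CPM + 0.5) between members ran from 0.747 to 0.982 over 45 pairs, with both skin states among the points. Deviations from the group means correlated at 0.151 to 0.912 with a median of 0.642, all positive and lowest for Meg3 with Ndn. The points share libraries and the members were chosen together, so these are descriptions.

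Markers of other cells varied between the same injured libraries. The summed level of 7 dermal fibroblast markers, such as Col1a1 and Pdgfra, was 5400, 15277 and 10527 CPM in control injured libraries 1 to 3 and 9084, 8605 and 16464 in Nf1-KO injured ones, so that it too was lowest in control 1 and highest in Nf1-KO 3. It ran from 907 to 3242 CPM in uninjured libraries, and 7 of 7 markers were called higher with injury in both genotypes, with medians of 2.62 and 2.70 on the log2 scale. Among injured libraries the macrophage and Schwann lineage sums were also lowest in control 1 (162.8 and 67.0 CPM) and highest in Nf1-KO 3 (555 and 206). The blood endothelium sum was likewise highest in Nf1-KO 3 (194.8), whereas the basal keratinocyte sum was highest in control 1 (13705). The 5 dermal papilla markers summed to 181.8 CPM in Nf1-KO injured 3 and to 61.8 to 103 in the other injured libraries. Crabp1 made up most of this sum, at 76.6 ± 69.4 CPM in Nf1-KO injured skin (SD, n = 3). Rspo3, Corin, Alpl and Sox2 had means of 13.1, 6.24, 5.43 and 1.32 CPM there. The summed level of 5 hair follicle markers, listed as hair matrix and shaft, ran the other way. It was 5612 CPM in Nf1-KO 3, the lowest, and 18958 in Nf1-KO 2, the highest, against 11.7 to 51.7 in uninjured libraries. Most of this sum came from the inner root sheath keratins Krt71 and Krt27, with means of 7382 and 2681 CPM in Nf1-KO injured skin. Krt31, Krt35 and Msx2 had means of 480, 866 and 171 CPM there. The 6 myogenic markers were highest in control 2 at 158 CPM, ahead of 92.5 in Nf1-KO 3. Myh8 had the largest mean of the 6 in control injured skin, at 39.2 ± 40.5 CPM (SD, n = 3). None of these lists had a gene at 0 in all 3 libraries of a group. In bulk skin fewer cells of a type and less RNA per cell cannot be told apart, and the part of these cells in the results of the 10 genes was not tested.

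**Figure D3:**
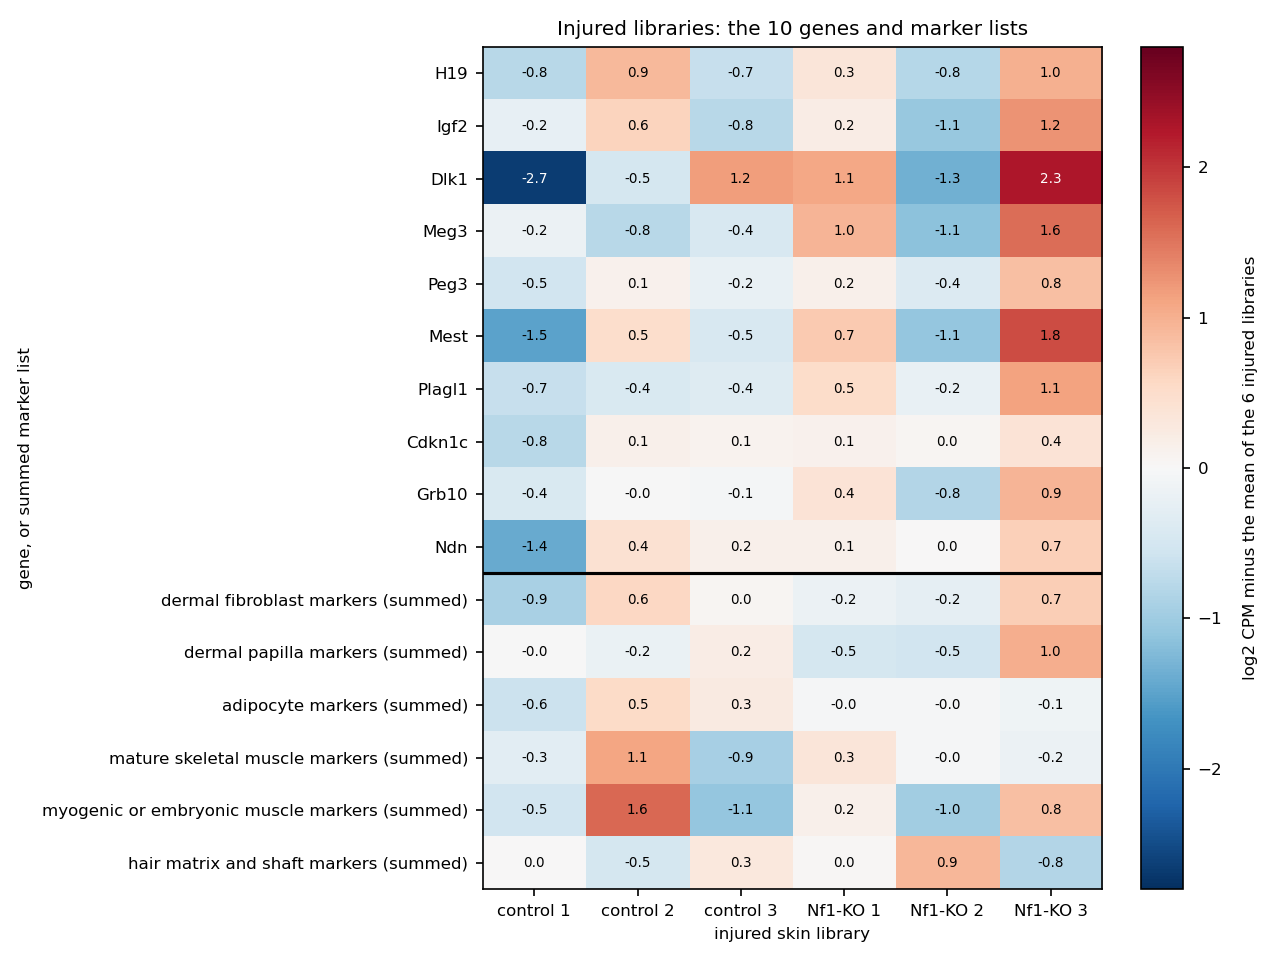
Each cell gives log2 CPM of a gene (upper 10 rows), or of a summed marker list (lower rows), in 1 injured library minus the mean of the 6 injured libraries. The column of Nf1-KO 3 is above the mean for all 10 genes and for the fibroblast and dermal papilla sums. It is below the mean for the sum labelled hair matrix and shaft, most of which is Krt71 and Krt27. The column of control 1 is below the mean for all 10 genes. The macrophage, Schwann lineage, endothelium and keratinocyte sums are not drawn.

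The counts of the other marker lists are read against 22.8% of all genes called higher and 32.5% lower in control skin, and 19.1% and 18.4% in Nf1-KO skin. Adipocyte markers were called higher in 6 of 6 cases in control and 5 of 6 in Nf1-KO skin, mature skeletal muscle markers in 5 and 6 of 6, blood endothelium in 4 of 4 in both, and macrophage markers in 3 and 4 of 4. Of 6 myogenic or embryonic muscle markers, 3 were called higher in each genotype. Pax7 (log2 -1.95 in control and -1.24 in Nf1-KO skin) and Myf5 (-2.01 and -1.38) had negative values and were not called. Of 5 dermal papilla markers 1 was called higher in control skin, near the share of all genes, and 2 in Nf1-KO skin. Basal keratinocyte markers were called lower in 3 of 4 cases in both. Of 6 Schwann lineage markers, 3 were called lower in control skin, and 1 higher and 1 lower in Nf1-KO skin, near the shares of all genes.

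Between genotypes in uninjured skin no member was called, where 7 genes or 0.0296% of all were. One of the 10 had an unadjusted p under 0.05, beside 8.34% of all genes. DESeq2 called 60 genes and limma voom 1, none of them a member. The median log2 fold change was 0.09, beside -0.04 over all genes. Meg3 was the only member whose groups did not overlap (log2 0.60 ± 0.53), with groups apart and higher in Nf1-KO skin for 8.79% of all genes. Cdkn1c had the largest value at 0.75 ± 0.28, with overlapping groups, and H19 differed by 0.16 ± 0.89. With 3 libraries a group and standard errors of 0.28 to 1.14, differences of the size of these errors were not detectable.

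Between genotypes in injured skin all 10 fitted differences were positive, as were those of 15495 of all 23635 genes tested. None of the members was called by edgeR, which called 0 genes in all (0.00%) with 2532 at an unadjusted p under 0.05 (10.7%). DESeq2 called 124 genes and limma voom 1, none of them a member. Of the members, 2 had an unadjusted p under 0.05. The median was 0.48, beside 0.12 over all genes tested. Plagl1 was the only member with groups apart, higher in Nf1-KO skin by 1.05 ± 0.27, where 6.37% of all genes had groups apart in that direction. Meg3 (1.28 ± 0.50), Dlk1 (1.22 ± 0.94) and Mest (1.19 ± 0.64) had larger differences with overlapping groups, and H19 differed by 0.31 ± 0.65. Without Nf1-KO injured 2, Plagl1 (1.26) and Meg3 (1.67) were called, and without a filter on low counts Plagl1 (0.94) was. Nf1-KO injured 2 was the lowest Nf1-KO injured library for Plagl1 and Meg3, so leaving it out raised their differences. Nf1-KO injured 3, the highest library for all 10, bears on these directions. Without it the log2 difference was -0.19 for H19 and -0.31 for Igf2, and the other 8 ran from 0.03 for Grb10 to 0.69 for Meg3, with Plagl1 at 0.64, Mest at 0.34 and Dlk1 at 0.29.

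Markers of other cells moved with the genotype comparison in injured skin, though none was called. All 4 macrophage markers (median log2 0.99) and 5 of 6 Schwann lineage markers (median 1.34) had an unadjusted p under 0.05, beside 10.7% of all genes. All 10 markers of both lists had positive values, as had 15495 of all 23635 genes tested. The macrophage sum was 162.8 to 239.8 CPM in control injured libraries and 372, 210.4 and 555 in Nf1-KO injured libraries 1, 2 and 3. The Schwann lineage sum was 67.0 to 78.8 and 110.5 to 206 CPM, highest in Nf1-KO 3 as for the 10 growth genes. No marker of the dermal fibroblast, dermal papilla, adipocyte, muscle, hair, keratinocyte or endothelium lists had an unadjusted p under 0.05 there. In uninjured skin 3 of 6 mature skeletal muscle markers (median -1.62), 2 of 4 blood endothelium markers (median -0.48), 2 of 6 Schwann lineage markers (median 0.27) and 2 of 4 macrophage markers (median 0.66) had an unadjusted p under 0.05, beside 8.34% of all genes. The part of these cells in the genotype values of the 10 genes was not tested.

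The injury differences of both genotypes were also set against each other. For 9 of the 10 genes the log2 difference was larger in Nf1-KO skin, as it was for 14272 of all 23635 genes tested. The difference between the responses had a median of 0.64 in the 10 genes, beside 0.17 over all genes. It ran from -0.44 ± 0.38 for Cdkn1c to 1.07 ± 0.93 for Mest, and was 0.99 ± 0.39 for Plagl1 and 0.15 ± 1.11 for H19. No member was called, nor was any gene by edgeR (0.00%, with 2541 genes at an unadjusted p under 0.05) or by limma voom, while DESeq2 called 37. One member had an unadjusted p under 0.05. Without Nf1-KO injured 3 the difference between the responses was larger in Nf1-KO skin for 7 of the 10 genes, and was -0.33 for H19, -0.05 for Dlk1 and -0.56 for Cdkn1c.

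Imprinted genes outside the 10 were called in both directions with injury. Of 52 such genes in the files 50 passed the filter. In control skin 11 rose and 14 fell (median log2 -0.08), and in Nf1-KO skin 12 rose and 7 fell (median 0.26). Over all genes 22.8% rose and 32.5% fell in control skin, and 19.1% and 18.4% in Nf1-KO skin. Of those that fell in control skin, 11 of 14 lay under 10 times the receptor background in every uninjured control library. So did 5 of the 11 that rose there. The receptor background was itself lower in the injured libraries, and its part in these calls was not tested. Of the 25 tested that lie in the same domains as a member, 4 rose and 6 fell in control skin, and 6 rose and 6 fell in Nf1-KO skin. Of the 25 tested from other domains, 7 rose and 8 fell in control skin, and 6 rose and 1 fell in Nf1-KO skin. No gene of these lists was called between genotypes or for the difference between the responses by edgeR, with 5, 9 and 12 of them at an unadjusted p under 0.05 in uninjured skin, in injured skin and for that difference. Without control uninjured 1 and 2 the count called in control skin was 15 in place of 25, and without Nf1-KO uninjured 2 that in Nf1-KO skin was 11 in place of 19.

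Within the H19 and Cdkn1c region of chromosome 7, neighbours went in opposite directions. Phlda2, a maternal gene known to restrain placental growth, went from 0.600 ± 0.303 to 11.2 ± 2.97 CPM in control skin (n = 3, 17.9-fold, edgeR adjusted p = 7.57e-06). Ascl2, a maternal transcription factor of placenta and other tissues, fell by 2.01 ± 0.21 on the log2 scale in control skin, from 37.5 ± 7.70 to 9.28 ± 0.491 CPM (n = 3, edgeR adjusted p = 4.26e-06). In Nf1-KO skin it went from 62.0 ± 3.15 to 7.93 ± 1.70 CPM, a log2 change of -2.97 ± 0.21 (n = 3, edgeR adjusted p = 1.84e-07). Osbpl5, a lipid-binding protein gene, fell by 1.39 in control skin (edgeR adjusted p = 5.73e-05) and by 1.49 in Nf1-KO skin (edgeR adjusted p = 2.91e-05). Igf2os, antisense to Igf2 and named here after its values were seen, had 48 counts over the 3 control uninjured libraries and 5 over the control injured ones (edgeR adjusted p = 0.00504). Its uninjured control level was only 1.01 to 1.77 times the receptor background, which was also lower in injured libraries, so its fall may be one of background reads. That was not tested.

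Other domains gave the same mixture. Dio3, which encodes a thyroid hormone inactivating enzyme in the Dlk1 and Meg3 domain, went from 0.416 ± 0.324 to 10.4 ± 3.60 CPM in Nf1-KO skin (n = 3, 25.1-fold, edgeR adjusted p = 3.07e-05). Rian, a non-coding RNA downstream of Meg3, was not called in either genotype (10.8 ± 4.34 and 8.06 ± 0.696 CPM in control skin, edgeR adjusted p = 0.462). Zim1, a zinc-finger gene beside Peg3 named after its values were seen, went from 1.09 ± 0.321 to 21.1 ± 15.5 CPM in Nf1-KO skin (n = 3, edgeR adjusted p = 8.67e-05). Usp29, which shares the Peg3 promoter region and was named in the same way, went from 9.43 ± 3.79 to 0.304 ± 0.263 CPM in control skin (n = 3, edgeR adjusted p = 0.000236). It stood at 2.29 to 2.99 times the receptor background in uninjured control libraries. Cobl, an actin nucleator gene beside Grb10, fell by 1.73 in control skin (edgeR adjusted p = 3.84e-05) and by 2.13 in Nf1-KO skin (edgeR adjusted p = 5.16e-06). For 11 of the 14 genes that fell in control skin, Usp29 and Igf2os among them, the level in every uninjured control library was under 10 times the receptor background. That was so for 5 of the 11 that rose there, namely Phlda2, Dio3, Zim1, Airn and Nnat. In Nf1-KO skin it was so, over the uninjured Nf1-KO libraries, for 8 of the 12 that rose, Dio3, Zim1, Airn and Nnat among them, and for 4 of the 7 that fell. The low uninjured levels thus lay on both sides, and their part in these calls was not tested.

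**Figure D4:**
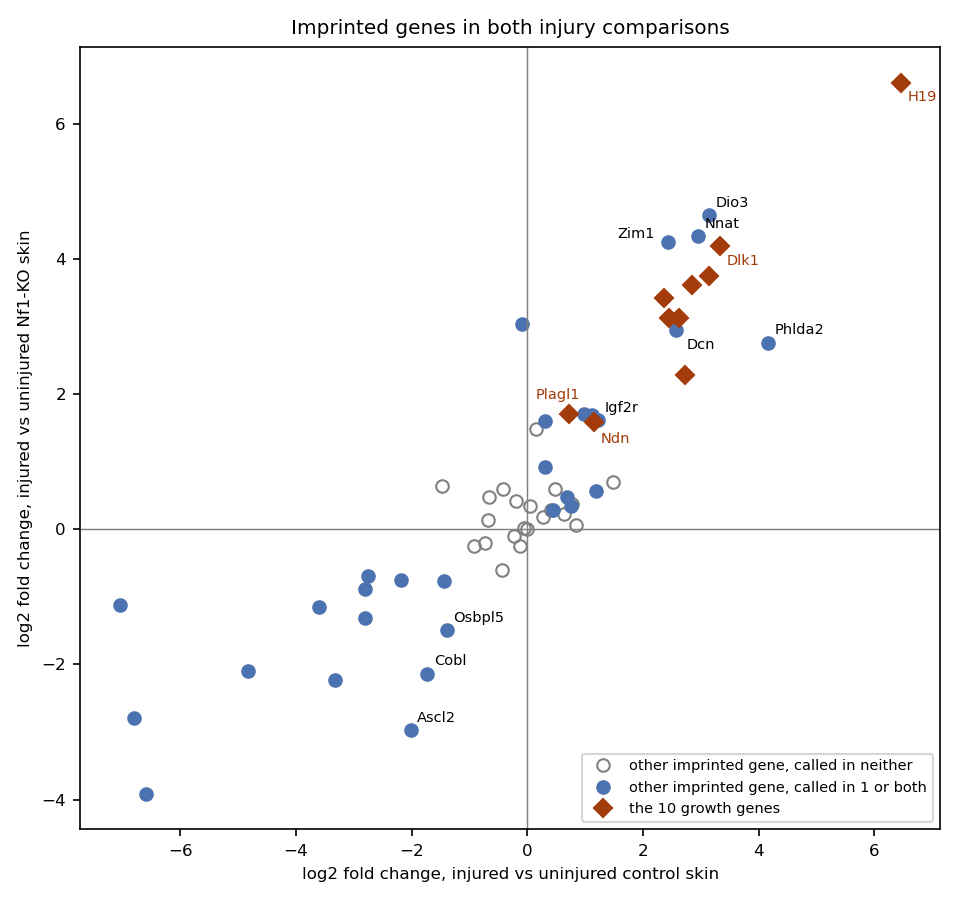
Log2 fold change with injury in control skin (horizontal axis) and in Nf1-KO skin (vertical axis) for the 10 growth genes (diamonds) and 50 other imprinted genes (circles, filled where called in at least 1 of both comparisons). The diamonds all lie above 0 on both axes, with H19 at 6.46 and 6.61, while the circles lie on either side of 0, with Ascl2 at -2.01 and -2.97. The 10 growth genes were selected on their levels in these libraries, so nothing is read from this difference.

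Of the imprinted genes in other domains, Dcn and Igf2r rose in both genotypes. Dcn encodes decorin, a small proteoglycan of dermal collagen, and its imprinting is known from placenta. It went from 198 ± 11.4 to 1184 ± 468 CPM in control skin (n = 3, edgeR adjusted p = 3.89e-05) and from 190.5 ± 71.7 to 1469 ± 435 in Nf1-KO skin (n = 3, edgeR adjusted p = 1.13e-05). Igf2r encodes the receptor that clears IGF2, and went from 20.6 ± 2.02 to 48.2 ± 4.89 CPM in control (n = 3, edgeR adjusted p = 0.000301) and from 19.3 ± 2.58 to 59.0 ± 17.9 in Nf1-KO skin (n = 3, edgeR adjusted p = 3.66e-05). Its antisense transcript Airn was 3.24-fold higher in Nf1-KO skin (edgeR adjusted p = 0.00249), and the unstranded reads of the pair cannot be told apart where they overlap. Nnat, which encodes the membrane protein neuronatin, went from 1.14 ± 0.344 to 23.3 ± 5.14 CPM in Nf1-KO skin (n = 3, edgeR adjusted p = 0.00092). Asb4 (log2 -2.81, edgeR adjusted p = 0.000399) and Rasgrf1 (log2 -2.81, edgeR adjusted p = 0.00109) fell in control skin. Rasgrf1 stood at 2.10 to 3.12 times the receptor background in uninjured control libraries, and without control uninjured 1 and 2 its call was lost (log2 -1.91, edgeR adjusted p = 0.0721).

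The genes that carry, bind or answer IGF ligands were examined beside Igf2 and Grb10. Of 18 genes of this axis 17 passed the filter. In control skin 8 rose and 4 fell (median log2 0.32), beside 22.8% of all genes called higher and 32.5% lower. In Nf1-KO skin 7 rose and 4 fell (median 0.28), beside 19.1% called higher and 18.4% lower. Igf1, the second IGF ligand, went from 16.4 ± 1.07 to 166 ± 112 CPM in Nf1-KO skin (n = 3, edgeR adjusted p = 0.0002). The binding protein gene Igfbp4 went from 34.6 ± 7.71 to 299.6 ± 45.2 CPM in control skin (n = 3, edgeR adjusted p = 3.85e-06) and from 46.0 ± 20.5 to 460.1 ± 121.5 in Nf1-KO skin (n = 3, edgeR adjusted p = 1.6e-06). Igfbp6, whose product prefers IGF2, rose by 3.24 on the log2 scale in control (edgeR adjusted p = 7.29e-05) and 3.75 in Nf1-KO skin (edgeR adjusted p = 2.57e-05). Igfbp3 fell by 2.18 in control (edgeR adjusted p = 2.35e-05) and by 2.43 in Nf1-KO skin (edgeR adjusted p = 7.72e-06), to 154 ± 60.4 and 113 ± 18.7 CPM (n = 3). Igf2bp3, whose product binds Igf2 mRNA, fell by 3.20 in control skin (edgeR adjusted p = 3.33e-05), from a level 3.72 to 5.22 times the receptor background in uninjured control libraries. No gene of the axis was called between genotypes by edgeR, with 2 at an unadjusted p under 0.05 in uninjured skin and 2 in injured skin.

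The 10 factors that keep or read imprints passed the filter. In control skin 3 rose and 1 fell, beside 22.8% of all genes called higher and 32.5% lower there. In Nf1-KO skin 5 rose and 0 fell, beside 19.1% called higher and 18.4% lower. With 10 genes in the list these counts are a description only. Trim28, the corepressor recruited by ZFP57, rose by 1.37 ± 0.22 in control (edgeR adjusted p = 0.000177) and 0.84 ± 0.22 in Nf1-KO skin (edgeR adjusted p = 0.00723). Uhrf1, which guides DNA methylation to newly replicated DNA, rose by 0.88 in control (edgeR adjusted p = 0.00166) and 0.80 in Nf1-KO skin (edgeR adjusted p = 0.00548). Ctcf, whose product binds the control region between H19 and Igf2, rose by 0.75 in control skin (edgeR adjusted p = 0.00227). Zfp445 fell by 0.46 in control skin (edgeR adjusted p = 0.0343), and Dnmt3a (0.65, edgeR adjusted p = 0.0246) and Smchd1 (0.49, edgeR adjusted p = 0.0312) rose in Nf1-KO skin. The call of Zfp445 was lost without any 1 of the 6 control libraries, that of Dnmt3a without Nf1-KO uninjured 1 or 2 or Nf1-KO injured 3, and that of Smchd1 without any 1 Nf1-KO library except injured 3. Without control uninjured 1 and 2, 1 of the 10 was called in control skin, and the calls of Ctcf and Uhrf1 were lost.

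The genes most like H19 were sought among 13767 genes averaging at least 2 CPM, by the Pearson correlation of log2(CPM + 0.5) over the 12 libraries. The leading 5 were Snai1 (0.992), Adam12 (0.991), C1qtnf5 (0.991), Lamb1 (0.990) and Mfrp (0.990). Snai1 encodes a transcription factor of mesenchymal cells, Adam12 a membrane metalloprotease and Lamb1 a laminin chain. C1qtnf5 and Mfrp share a locus and had nearly the same level in injured skin (46.2 and 46.3 CPM in control), so their reads may be shared. These correlations span both skin states. The correlation of deviations from the group means was 0.88 for Snai1, 0.90 for Adam12, 0.84 for Lamb1 and 0.84 for C1qtnf5. Among the members Peg3 came first, in place 43 (0.982, and 0.66 for deviations), then Grb10 in place 235 and Igf2 in place 328, while Ndn came last in place 3536 (0.807).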

How the data were processed

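The authors deposited unscaled counts of reads for each Ensembl gene in 12 libraries, made from 10 ng of total skin RNA with Smart-Seq v4 and Nextera XT, per the labels' protocols. The submitters' processing notes name HTSeq 0.5.3, STAR 2.5.2b, HOMER, SAMtools and DESeq2 with mm10. The annotation and strand option were not given in the sources used here. Repeated columns were equal and read once, and 1 column of no listed sample was not used. Symbols, positions and exonic lengths came from GENCODE M21, which matched 53274 of 53379 IDs. The 105 others held at most 0.0454% of a library's counts.

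All 12 libraries were fitted in edgeR 4.0.16 (R 4.3.3) with 4 group means, TMM scaling, a count minimum of 10 and robust quasi-likelihood tests, 2-sided, Benjamini-Hochberg adjusted over 23635 genes, with calls at adjusted p under 0.05. Fold changes are log2 with SE, levels mean ± SD of TMM CPM. The script was tested on simulated data. Alternatives were median-of-ratios scaling, no filter, at least 2 CPM in 3 libraries, a replicate block, the compared groups alone, limma 3.58.1 voom, DESeq2 1.42.0, and each library left out. Members and lists were chosen with earlier results of these data known. Named list genes were, per list and comparison, up to 4 called genes of smallest p averaging at least 1 CPM, and up to 5 genes most like H19, with no clone, predicted gene or pseudogene. Reads carry no molecular identifiers. Sequences are from RefSeq tables (GRCm38.p6).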

Additional observations from a re-analysis of the deposited data

How the results depend on the processing

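No member's fold change turned its sign in a comparison where it was called, and no direction of a named list gene did. Of 448 values for named list genes under the alternatives, 422 kept the call and 26 lost it. Leaving out 1 library gave 6 to 10 called members for injury in control skin, 9 to 10 for injury in Nf1-KO skin and 0 to 2 for Nf1-KO in injured skin, and 11 to 21 called imprinted genes outside the members and 2 to 4 maintenance factors for injury in Nf1-KO skin. Without a filter, Nf1-KO in injured skin had 1 called member and 2 called imprinted genes outside them, and the difference between the responses had 1 such gene. For injury in Nf1-KO skin, 3 maintenance factors were called in a fit of the compared groups alone and 2 without the 2 injured Nf1-KO libraries of highest background. Without both control uninjured libraries of highest background, injury in control skin had 5 called members, 15 imprinted genes outside them and 1 maintenance factor. Fewer samples enter the last fits. The cause of the other changes was not tested. For injury in control skin, 8 members were called by voom (without Dlk1 and Plagl1) and 9 by DESeq2 and by the stricter filter (without Plagl1). Of all called genes, 41.3% were higher in control and 50.9% in Nf1-KO skin in edgeR, and 29.8% and 39.7% in DESeq2, run without the filter. The median over all genes shifted by 0.19 without a filter in control skin, by -0.13 for the difference between the responses, and by -0.11 with median-of-ratios scaling and -0.10 in DESeq2 in Nf1-KO skin. Over all genes Nf1-KO in uninjured skin had 7 calls in edgeR, 60 in DESeq2, 1 in voom and 219 without a filter, and Nf1-KO in injured skin had 410 and the difference between the responses 236 without a filter. Replicate numbers did not pair the samples: 4 of 18 same-numbered pairs of libraries had deviations correlated above 0.1 (-0.424 to 0.38), and the best match carried its own number in 9 of 36 cases. With the number as a replicate block, 9 members were called in control skin (Ndn lost, 1.12) and 10 in Nf1-KO skin, with 25 and 15 imprinted genes outside them and 12740 and 8173 genes in all. Depth limits Igf2, Dlk1 and H19 in uninjured skin, where H19 rested on 7 to 46 reads a library.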
